A study of Mus musculus with 15 samples.

Results

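The autophagy and lysosome genes are 36 mouse genes picked by symbol as autophagy machinery, TFEB family transcription factors and lysosomal proteins, out of 49315 genes with a row. All 36 had a row and had enough reads to be tested in every comparison. By role, 4 start autophagy, 4 belong to the class III phosphatidylinositol 3-kinase complex, 10 supply or conjugate membrane components, 5 are LC3 and GABARAP proteins, 3 are cargo receptors, 2 are TFEB family factors and 8 are lysosomal. Polyadenylated RNA was sequenced from primary myoblasts of wild-type C57BL/6J mice that were transfected with small interfering RNA and then differentiated for 1 day. The groups were siSirt1, against the deacetylase sirtuin 1, siLmod1, against the actin nucleator leiomodin 1, and siCtrl, the control RNA. Each group held 5 libraries, numbered 1, 2, 3, 4 and 7, and the study used 5 different primary lines. Same-numbered libraries are taken here as 1 line, which the labels do not state outright. Values by library are listed below in that order of lines.

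In autophagy, a double membrane grows around cytoplasmic cargo, closes as an autophagosome and fuses with a lysosome, where acid hydrolases digest the content. The ULK kinase complex starts the membrane, a phosphatidylinositol 3-kinase complex marks it with lipid, and ubiquitin-like conjugation fixes LC3 and GABARAP proteins on it, to which cargo receptors bind. TFEB and TFE3 switch on genes of lysosomes and autophagy. In skeletal muscle the pathway removes worn mitochondria and proteins, loss of LAMP2 in people causes a vacuolar myopathy (Danon disease), and sirtuin 1 is known to deacetylate several autophagy proteins.

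The libraries held 21004908 to 33601761 counted reads. Lmod1 stood at 1.41 to 5.46 CPM (counted reads scaled to a fixed library size) in siLmod1 and 6.22 to 44.3 CPM in siCtrl, and Sirt1 at 3.49 to 10.7 CPM in siSirt1 and 17.9 to 36.2 CPM in siCtrl, lower in 5 of 5 lines in each knockdown. With the line as a block, Lmod1 was also lower in siSirt1 (-0.96 on the log2 scale, edgeR adjusted p = 0.027) and Sirt1 higher in siLmod1 (0.54, adjusted p = 0.00014). Markers of myoblasts (Myod1, Myf5, Pax7, Des, Cdh15, Myog) summed to 5382 to 10865 TPM (transcript units scaled to gene length and library size) over the libraries, and all 6 passed the filter on low counts. Markers of macrophages, cells rich in lysosomes, summed to 4.40 to 12.6 TPM in siSirt1, 4.97 to 8.26 TPM in siLmod1 and 4.69 to 8.49 TPM in siCtrl. Of these 8 markers 3 had enough reads to be tested, Adgre1 was at 0 in every siSirt1 and siLmod1 library, and Ptprc was at 0 in every siCtrl library. Fibroblast markers summed to 41.97 to 268 TPM in siSirt1, 31.0 to 98.9 TPM in siLmod1 and 41.0 to 169 TPM in siCtrl. Among them Col3a1 averaged 367 CPM in siCtrl, against 2.87 CPM for Col1a1 and 2.80 CPM for Pdgfrl. With the block, 0 of 5 tested fibroblast markers rose and 2 fell in siLmod1, and 1 rose and 0 fell in siSirt1, while 3 of 6 myoblast markers fell in siLmod1 and none passed in siSirt1. Smooth muscle and pericyte markers summed to 2426 to 7784 TPM in siSirt1, 3684 to 9768 TPM in siLmod1 and 4612 to 10440 TPM in siCtrl. Acta2 carried these sums, at a mean of 2693, 4185 and 4619 CPM in these groups. In siCtrl the others averaged 3.36 CPM (Rgs5), 5.43 CPM (Cspg4), 4.20 CPM (Pdgfrb) and 0.479 CPM (Myh11). With the block 2 of the 5 markers fell in siLmod1, Rgs5 (-1.09) and Cspg4 (-0.72), and 1 fell in siSirt1, Acta2 (-0.82). The part of such cells or of the stage of differentiation in the results was not tested. Line 4 held the highest or lowest level of several members in all 3 groups, as given below, and the siSirt1 library of line 1 followed its own line least closely. In bulk RNA, fewer cells of a type and less RNA per cell cannot be told apart.

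Levels per length in siCtrl spanned a wide range, and neither the lysosomal genes nor the cargo receptors lay together in it. Lamp1, a glycoprotein of the lysosomal membrane, averaged 804 ± 152 TPM, the aspartic protease Ctsd 803 ± 252 TPM, and Sqstm1, the cargo receptor p62, 665 ± 135 TPM (SD, n = 5). These 3 ranges overlapped, so their order is not set beyond the spread. Gabarap, at 403 ± 34.5 TPM, had the highest mean of the 5 ubiquitin-like proteins, although Map1lc3a, at 305 ± 173 TPM, overlapped it and was above it in line 4. Map1lc3b, at 48.8 ± 4.61 TPM, had the lowest mean. The cysteine proteases Ctsl and Ctsb averaged 371 ± 196 and 306 ± 229.7 TPM, with line 4 highest for both. At the low end stood Atg7 at 12.2 ± 1.99, Uvrag at 11.6 ± 1.33, Atg14 at 11.5 ± 2.10 and Tfe3 at 9.88 ± 1.89 TPM, whose ranges overlapped. Tfeb was lowest at 3.61 ± 1.02 TPM, and its highest siCtrl library (4.52 TPM) lay below the lowest value of every other member.

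**Figure D1:**
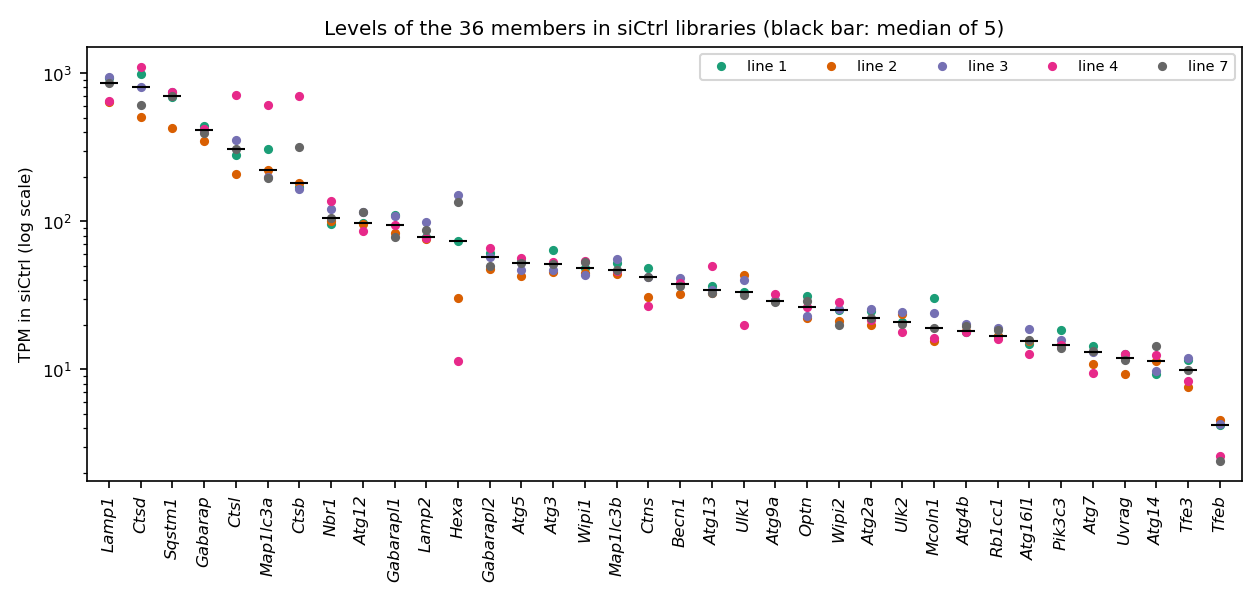
Level of each of the 36 members in the 5 siCtrl libraries, in TPM on a log axis, with a point for each primary line and a black bar at the median. Lamp1, Ctsd and Sqstm1 lead and Tfeb is lowest, while Hexa runs from 11.3 TPM in line 4 to 150.03 TPM in line 3.

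For 3 lysosomal hydrolases nearly all of the spread lay between the primary lines. Of the spread of log2(CPM + 1) over the 15 libraries, differences between lines held 97.5% for Ctsl, 97.4% for Ctsb and 96.3% for Hexa, and differences between groups under 3% for each. Hexa, the alpha subunit of beta-hexosaminidase, differed 13.2-fold in TPM between the highest and the lowest siCtrl line. Ctsb stood at 257, 293, 232, 1174 and 483 CPM in the siCtrl lines, and Ctsl at 175, 142, 208, 493 and 196 CPM, both highest in line 4. Line 4 lay above all other lines in each of the 3 groups for 10 members (Atg5, Atg13, Becn1, Ctsb, Ctsd, Ctsl, Gabarapl2, Map1lc3a, Nbr1 and Wipi2) and below them for Hexa and Ulk1. Such a count was not made for the other lines or over all genes, so it is not a trait of these members. The macrophage markers of line 4 summed to 6.41, 8.26 and 7.32 TPM in siSirt1, siLmod1 and siCtrl. Those of the other lines lay at 4.40 to 12.6, 4.97 to 8.04 and 4.69 to 8.49 TPM, but Csf1r alone was at 1.31, 3.702 and 3.05 TPM in line 4 and at no more than 0.219 TPM in the others. Itgam, at 0.162, 0.424 and 0.1401 TPM, and Mrc1, at 0.128, 0.0835 and 0.174 TPM, lay below every other line in the same groups. The angiopoietin receptor Tek stood at 29.7, 57.95 and 62.3 TPM there and under 1 TPM in every other line, while the endothelial genes Pecam1, Cdh5 and Kdr were under 1 TPM in line 4. Csf1r, Itgam, Mrc1 and Tek were picked from the marker lists after their values were seen. The part of other cells in the line 4 levels was not tested.

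For other members most of the spread lay between the groups. Groups held 87.0% of the spread for Ctns, 80.5% for Lamp2, 77.0% for Atg9a and 76.3% for Rb1cc1. Over the 36 members the median was 51.1% between lines and 22.8% between groups, against 59.2% and 15.1% over 14592 genes tested, and 23 of 36 members had more spread between lines than between groups, against 11843 of the 14592 genes. This is a description of these libraries, with no test.

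**Figure D2:**
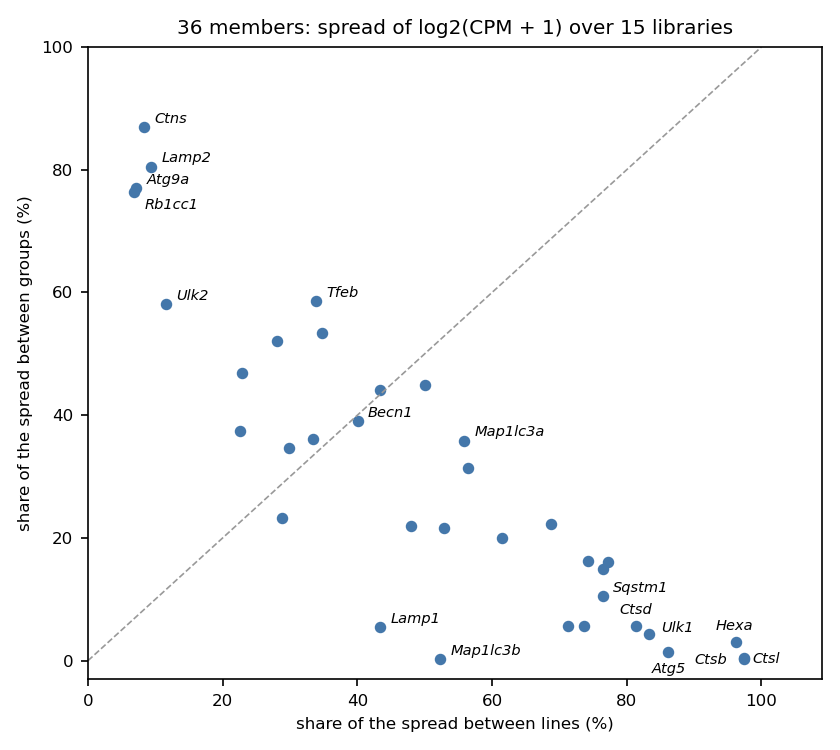
Share of the spread of log2(CPM + 1) over 15 libraries that lies between primary lines (horizontal, %) and between the 3 groups (vertical, %), 1 point per member, with a dashed line of equal shares. Ctns, Lamp2, Atg9a and Rb1cc1 sit at the upper left with 76.3% to 87.0% between groups, and Hexa, Ctsb and Ctsl at the lower right with over 96% between lines.

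The first comparison, of siLmod1 with siCtrl, asked what changes early in differentiation when Lmod1 is reduced. Ctns, the lysosomal cystine transporter, fell in every line to 16.9 ± 2.73 CPM in siLmod1, against 41.8 ± 8.10 CPM in siCtrl (SD, n = 5). In the pairwise edgeR fit with the line as a block, 4 further members fell, among them Lamp2 and the lipid scramblase Atg9a. In that fit 14 rose, among them Tfeb, Tfe3, all 3 cargo receptors and Gabarapl1 and Gabarapl2. Most of the rises were small: apart from Tfeb they lay between 0.14 and 0.36 on the log2 scale.

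With the group alone, edgeR's quasi-likelihood test with Benjamini-Hochberg adjustment called 1 member, Ctns, at an adjusted p under 0.05, where 0.113% of 15022 genes were called. With the line as a block it called 19 of 36 members, 14 higher and 5 lower, where 29.5% of all genes were called, 12.9% higher and 16.5% lower. DESeq2 without the block called 4 members. Of all genes called with the block 43.9% were higher on the count scale, and 58.6% on the TPM scale. The members' median log2 fold change was 0.105, against -0.0096 over all genes tested, and 28 members lay above 0. The scaled CPM ranges of the groups did not overlap for 3 members upward (Rb1cc1, Gabarapl1 and Atg4b) and 3 downward (Ctns, Lamp2 and Atg9a), where 1.42% and 1.3% of all genes did so. All 5 lower calls and 10 of the 14 higher ones held without any 1 line. The calls of Pik3c3, Atg4b, Nbr1 and Ctsd did not: Atg4b and Ctsd were each called without only 1 of the 5 lines. All 19 kept their direction in each of 11 settings of tool, scaling and unit. With all 15 libraries in 1 blocked fit, edgeR called 10 members, 6 higher and 4 lower, and 1427 of all genes. Among those not called there were Tfe3, Sqstm1, Nbr1, Uvrag, Hexa and Wipi1, each called in 3 of the 11 settings.

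**Figure D3:**
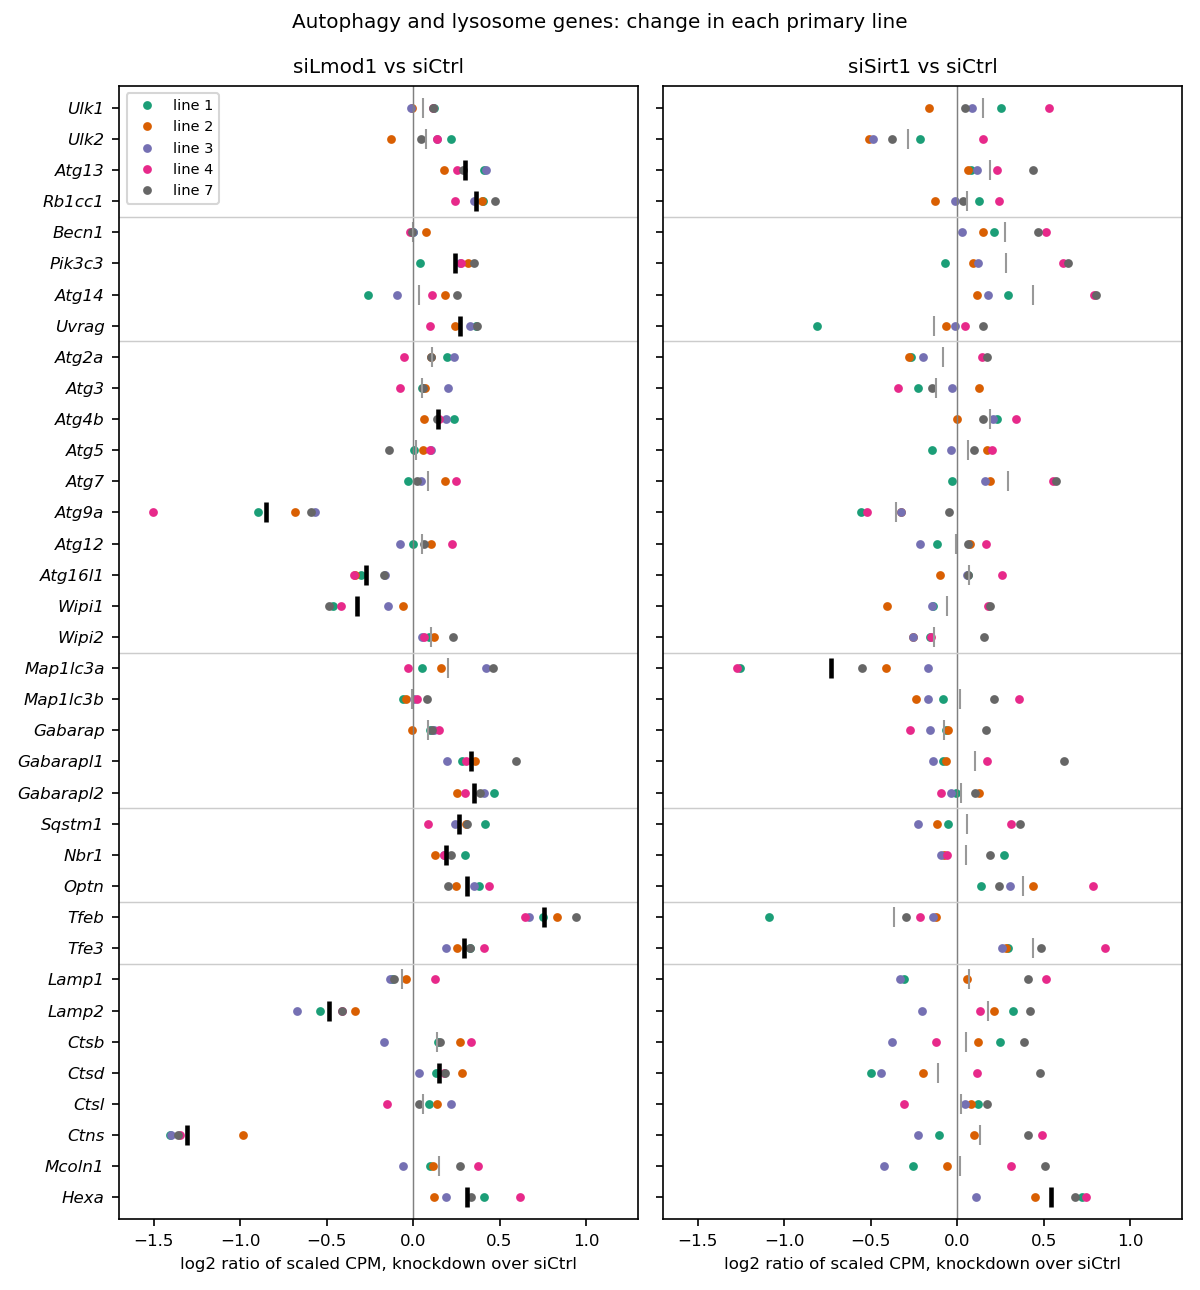
Log2 ratio of scaled CPM, knockdown over siCtrl, of each member in each primary line (coloured points), for siLmod1 (left) and siSirt1 (right), grouped by role with grey rules. Upright ticks mark the blocked log2 fold change, thick and black where the adjusted p was under 0.05, which holds for 19 members in siLmod1 and 2 in siSirt1.

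Among the lysosomal membrane proteins, Ctns (ENSMUSG00000005949, chromosome 11, 73183596 to 73199042; mm10) stood at 19.9, 18.1, 16.0, 12.7 and 17.9 CPM in siLmod1, against 52.6, 35.8, 42.4, 32.2 and 46.0 CPM in siCtrl. The groups did not overlap, and the highest siLmod1 library was below the lowest siCtrl library. Its log2 fold change was -1.32 (edgeR adjusted p = 0.029), and with the block -1.31 (SE 0.074, adjusted p = 7.0e-06). The call without the block was lost when any 1 of 8 of the 10 libraries was left out, with an adjusted p of up to 0.12, and held without either library of line 4. On log2(TPM + 1) and log2(TPM + 0.1) in limma without the block the adjusted p was 0.054 and 0.051. Lamp2 (ENSMUSG00000016534, chromosome X, 38401357 to 38456454), a lysosomal membrane glycoprotein with a role in autophagosome fusion, stood at 162, 197, 178, 197 and 204 CPM in siLmod1, against 236, 248, 283, 261 and 271 CPM in siCtrl. These groups did not overlap either, at a log2 fold change of -0.48 (edgeR adjusted p = 0.089), and with the block -0.48 (adjusted p = 0.00022). Its relative Lamp1 was at -0.065 and Mcoln1, the lysosomal calcium channel, at 0.15 with the block, and neither passed (edgeR adjusted p = 0.39 and 0.11). Of the hydrolases, Hexa (0.31) and Ctsd (0.15) rose with the block, higher in 5 of 5 lines each (edgeR adjusted p = 0.0074 and 0.042), and Ctsb and Ctsl did not pass.

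Among the genes of membrane supply and conjugation, Atg9a (ENSMUSG00000033124, chromosome 1, 75180860 to 75192196), the membrane protein that moves lipids in the growing autophagosome, stood at 28.6, 35.97, 33.97, 23.2 and 35.6 CPM in siLmod1, against 53.1, 57.7, 50.3, 65.8 and 53.5 CPM in siCtrl. The groups did not overlap, and line 4 had the lowest siLmod1 and the highest siCtrl value. The log2 fold change was -0.84 (edgeR adjusted p = 0.060), and with the block -0.85 (SE 0.12, adjusted p = 0.00068). Its exons share 46 bases with Ankzf1 on the opposite strand, which unstranded reads cannot separate. Atg16l1, which directs LC3 conjugation to the membrane, was lower in 5 of 5 lines at 40.8 ± 5.61 CPM in siLmod1 and 48.7 ± 4.38 CPM in siCtrl (blocked log2 fold change -0.27, edgeR adjusted p = 0.0044). Wipi1, a reader of the autophagic lipid mark, was lower in 5 of 5 lines at -0.32 (adjusted p = 0.0077). The protease Atg4b was the only member of the 10 to rise, by 0.14 (adjusted p = 0.049), and the conjugation enzymes Atg3 and Atg7, the ubiquitin-like modifier Atg12 and its target Atg5 lay between 0.015 and 0.083 and did not pass.

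In 4 of the 5 members that fell, the 3′ untranslated region holds the word TGAACC, shown here because it marked lower genes in siLmod1 as a whole. Of 4095 words of 6 bases, it marked the lowest blocked fold changes, as ranks adjusted for the length of the region, over 12825 genes with a 3′ untranslated region in GENCODE M21. The 3452 genes that hold it (26.9%) had a median of -0.068, against 0.0035 in those without it, and 25.8% against 15.9% were called lower. These medians and shares are not adjusted for length, and longer regions hold any word more often. The words ranked 2, 3 and 5 hold the run GAACC, which the first word also holds, so they are not separate from it. For GAACCA, ranked 2, 24.9% against 16.0% were called lower. The word ranked 4, GCCCCC, does not hold that run and gave a similar share, 23.8% against 16.8%. The windows below are 30 bases on the transcribed strand in mm10, 5′ to 3′, with the word in capitals, from Ctns (chr11:73184718-73184747, minus strand), Lamp2 (chrX:38420916-38420945, minus), Atg9a (chr1:75181527-75181556, minus) and Atg16l1 (chr1:87791444-87791473, plus).
Ctns: ccaggcctctccTGAACCatggaggactcc
Lamp2: gcagatttctctTGAACCttccagtcttcc
Atg9a: ggaggcagggccTGAACCctcaatccctgc
Atg16l1: aagaaccaacacTGAACCaaactgactctg
Lamp2 holds a second copy, and Wipi1, the other member that fell, holds none. Of the 36 members 12 hold the word: the 4 above, 5 that rose (Atg4b, Ctsd, Gabarapl2, Nbr1 and Tfe3), and Atg12, Becn1 and Ulk2, which did not pass. A small interfering RNA can also lower transcripts that match the first bases of its guide strand. The sequences of the interfering RNAs were not analysed here, the word was found in the same fold changes, and its part in the 4 falls was not tested.

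Among the starters of autophagy, Rb1cc1 (FIP200), the scaffold of the ULK complex, stood at 105, 112, 106, 97.6 and 121 CPM in siLmod1, against 79.2, 84.6, 82.9, 82.6 and 87.2 CPM in siCtrl. The groups did not overlap, and the siCtrl lines lay close together. Its log2 fold change was 0.37 (edgeR adjusted p = 0.13), and with the block 0.36 (adjusted p = 0.00055). Atg13, the regulatory subunit, stood at 68.1, 55.7, 59.7, 91.7 and 56.5 CPM in siLmod1, against 51.2, 49.2, 44.6, 76.8 and 46.3 CPM in siCtrl. The groups overlapped, since line 4 was high in both, and each siLmod1 library lay above its own siCtrl library (0.30 with the block, edgeR adjusted p = 0.0025; 0.30, adjusted p = 0.73 without it). The kinase Ulk1 stood at 75.1, 96.9, 77.2, 49.5 and 72.2 CPM in siLmod1, against 69.0, 97.3, 77.8, 45.8 and 66.6 CPM in siCtrl, higher in 3 of 5 lines (0.056, edgeR adjusted p = 0.41 with the block). Neither Ulk1 nor its relative Ulk2 (0.072, adjusted p = 0.41) passed.

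In the phosphatidylinositol 3-kinase complex, the catalytic subunit Pik3c3 (0.24) and Uvrag (0.27), the subunit of the endosomal form, rose with the block in 5 of 5 lines (edgeR adjusted p = 0.020 and 0.0065). Becn1, the core scaffold, averaged 86.2 ± 4.98 CPM in siLmod1 and 85.7 ± 6.36 CPM in siCtrl, and Atg14, the subunit of the autophagic form, 13.8 ± 4.65 and 13.0 ± 2.82 CPM. Neither passed (blocked edgeR adjusted p = 1.00 and 0.81).

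Of the ubiquitin-like proteins, both that rose are GABARAP relatives. Gabarapl2 stood at 62.7, 45.3, 52.8, 66.6 and 48.9 CPM in siLmod1, against 45.3, 38.0, 39.8, 54.1 and 37.4 CPM in siCtrl, and Gabarapl1 at 85.9, 74.0, 74.3, 82.2 and 77.2 CPM in siLmod1, against 70.6, 57.9, 64.9, 66.7 and 51.2 CPM in siCtrl. Each was higher in 5 of 5 lines, and for Gabarapl1 the groups did not overlap. With the block the log2 fold changes were 0.35 and 0.34 (edgeR adjusted p = 0.00090 and 0.0025; adjusted p = 0.49 and 0.31 without the block). The LC3 genes did not pass: Map1lc3b stood at 119, 110.0, 124, 125 and 121 CPM in siLmod1, against 124, 113, 124, 123 and 115 CPM in siCtrl, with a blocked value of -0.0091 that changed sign between settings, and Map1lc3a was at 0.20 (adjusted p = 0.069).

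All 3 cargo receptors, which tie ubiquitinated cargo to LC3, rose with the block in the pairwise fit. Sqstm1 stood at 989.8, 609.9, 886, 943 and 951 CPM in siLmod1, against 743, 493, 748, 889 and 765 CPM in siCtrl, lowest in line 2 of both groups and higher in siLmod1 in 5 of 5 lines. Its blocked log2 fold change was 0.26 (edgeR adjusted p = 0.0054; 0.26, adjusted p = 0.77 without the block). It shares 580 exonic bases with Mrnip, which unstranded reads cannot separate. Mrnip averaged 61 counted reads, against 11091 to 31985 for Sqstm1. Nbr1 (0.19) and Optn, which encodes optineurin (0.31), followed (adjusted p = 0.011 and 0.0026), and without line 1 the adjusted p of Nbr1 was 0.051.

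Both TFEB family factors rose with the block in the pairwise fit. Tfeb (ENSMUSG00000023990, chromosome 17, 47737030 to 47792419) stood at 12.9, 15.7, 11.5, 8.10 and 8.48 CPM in siLmod1, against 7.65, 8.80, 7.25, 5.19 and 4.42 CPM in siCtrl. Each siLmod1 library was above its own siCtrl library by 0.64 to 0.94 on the log2 scale, while the groups overlapped, since lines 4 and 7 were low in both. The blocked log2 fold change was 0.76 (SE 0.090, edgeR adjusted p = 0.00030), and without the block 0.76 (adjusted p = 0.36). Tfe3 stood at 42.8, 28.8, 37.5, 36.4 and 37.5 CPM in siLmod1, against 34.1, 24.2, 32.9, 27.4 and 29.9 CPM in siCtrl, with a blocked value of 0.29 (adjusted p = 0.0034; adjusted p = 0.56 without the block).

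TFEB and TFE3 are known to bind the sequence GTCACGTG near the start of lysosomal genes, so the RefSeq promoter windows of members that hold it are shown. RefSeq promoters in GRCm38.p6, from 250 bases before to 50 after a start, were matched by symbol for 29 of the 36 members, and 22 of these read on in a GENCODE M21 transcript of the same gene. The word, on either strand, lay in 6 of these 29 (20.7%) and in 2.55% of 27025 genes, and the shorter CACGTG, which lies within it, in 8 of 29 and in 8.09% of genes. The 27025 genes were not limited to those with reads here, and the word is known from lysosomal genes. The shares are therefore no test of these members. The windows are 30 bases, 5′ to 3′ on the strand of the gene, with the word or its reverse complement in capitals, from Atg14 (chr14:47568417-47568446, minus strand), Atg3 (chr16:45158722-45158751, plus), Atg7 (chr6:114670951-114670980, plus), Ctsd (chr7:142387907-142387936, minus), Lamp1 (chr8:13159122-13159151, plus) and Mcoln1 (chr8:3500435-3500464, plus).
Atg14: aaacaaaatccCACGTGACtggccctgagc
Atg3: ggcctccttttGTCACGTGtcctgggagag
Atg7: ccatattggtgGTCACGTGtgcagtaagtg
Ctsd: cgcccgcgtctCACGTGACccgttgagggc
Lamp1: atgccgactggCACGTGACcacatcacgtg
Mcoln1: gggtcgcgcttGTCACGTGttcagttcagg
Atg3, Ctsd and Mcoln1 hold a second copy. The Atg7, Atg14 and Ctsd windows lie inside the gene as GENCODE M21 draws it, downstream of its outermost start, and the Mcoln1 window spans that start. In siLmod1, where Tfeb and Tfe3 rose, Ctsd was the only 1 of the 6 that passed with the block (0.15), where 29.5% of all genes were called, 12.9% higher. The Ctsd call was lost without line 1, 2, 4 or 7. Mcoln1 was at 0.15, Atg7 at 0.083, Atg3 at 0.051, Atg14 at 0.036 and Lamp1 at -0.065. A match is a description of the letters, and binding was not measured.

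**Figure D4:**
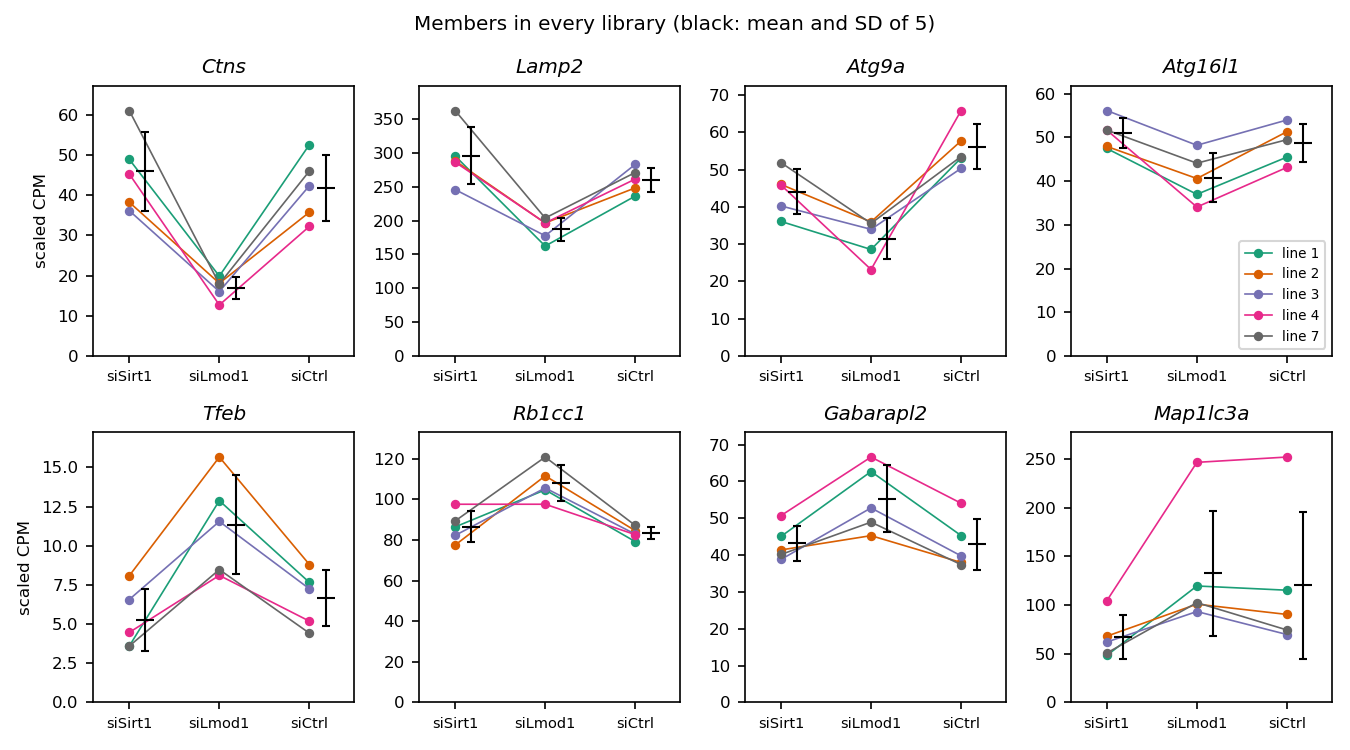
Scaled CPM of 8 members in every library of siSirt1, siLmod1 and siCtrl, with a line joining the libraries of 1 primary line and black marks at the mean and SD of 5. Ctns, Lamp2, Atg9a and Atg16l1 are lowest in siLmod1, Tfeb, Rb1cc1 and Gabarapl2 are highest there in nearly every line, and Map1lc3a is lowest in siSirt1.

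Beyond the 36 members, the proton pump that acidifies the lysosome had the largest share of higher calls in siLmod1 among the 7 other lists, in pairwise edgeR with the block. The lists were chosen with earlier results of these data known, so their order is a description and no test. Of 17 subunits of the vacuolar ATPase, 14 rose and 0 fell with the block, with a median of 0.24 (edgeR). Without the block edgeR called none in the pairwise fit, where 3 subunits had an unadjusted p under 0.05, and DESeq2 and the fit of all 15 libraries called 1 each. All 17 lay above 0 in each of 11 settings of tool, scaling and unit, with 7 higher calls when all 15 libraries shared a blocked fit. Atp6v1a, the catalytic subunit, stood at 432, 234, 257, 345 and 233 CPM in siLmod1, against 157, 122, 161, 146 and 119 CPM in siCtrl. The groups did not overlap (blocked log2 fold change 1.05, edgeR adjusted p = 6.5e-05; 1.08, adjusted p = 0.069 without the block). Atp6v1h (0.33) and Atp6v1d (0.29) followed.

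Of 25 other lysosomal membrane proteins 11 rose and 2 fell, among them the amino acid transporter Slc36a1 (0.52) and the mannose 6-phosphate receptor Igf2r (-0.39), which delivers hydrolases. The 38 other lysosomal enzymes tested went both ways, with 7 higher and 11 lower, among them the protease legumain, Lgmn (-0.65), the galactosidase Glb1 (-0.41) and the iduronidase Idua (0.52). Of 14 other cargo receptors 7 rose and 1 fell, with Tax1bp1 at 0.34 and Tollip at 0.27. Of 22 other autophagy genes 4 rose and 1 fell, with Stx17, the fusion syntaxin, at 0.39 and Ambra1, an activator of the ULK and PI3-kinase complexes, at -0.21. Of 25 mTORC1 and nutrient sensing genes 4 rose and 2 fell, with the GTPase Rragd at 0.36 and Fnip1, a partner of folliculin, at -0.47. Of 8 other transcription factors of the pathway tested 4 rose and 2 fell, with the coactivator Ppargc1a at 0.72, Foxo1 at -0.50 and Foxo3 at -0.40. These are pairwise edgeR values with the block, where 12.9% and 16.5% of all genes were called higher and lower. Without the block edgeR called none of these genes in the pairwise fit, and among the membrane proteins, enzymes, cargo receptors and other autophagy genes DESeq2 called 1, in the autophagy list. The counts depend on the fit: with all 15 libraries and the block, edgeR called 3 higher and 0 lower among the membrane proteins, 0 and 1 among the enzymes, 3 and 0 among the cargo receptors and 2 and 0 among the other autophagy genes.

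**Figure D5:**
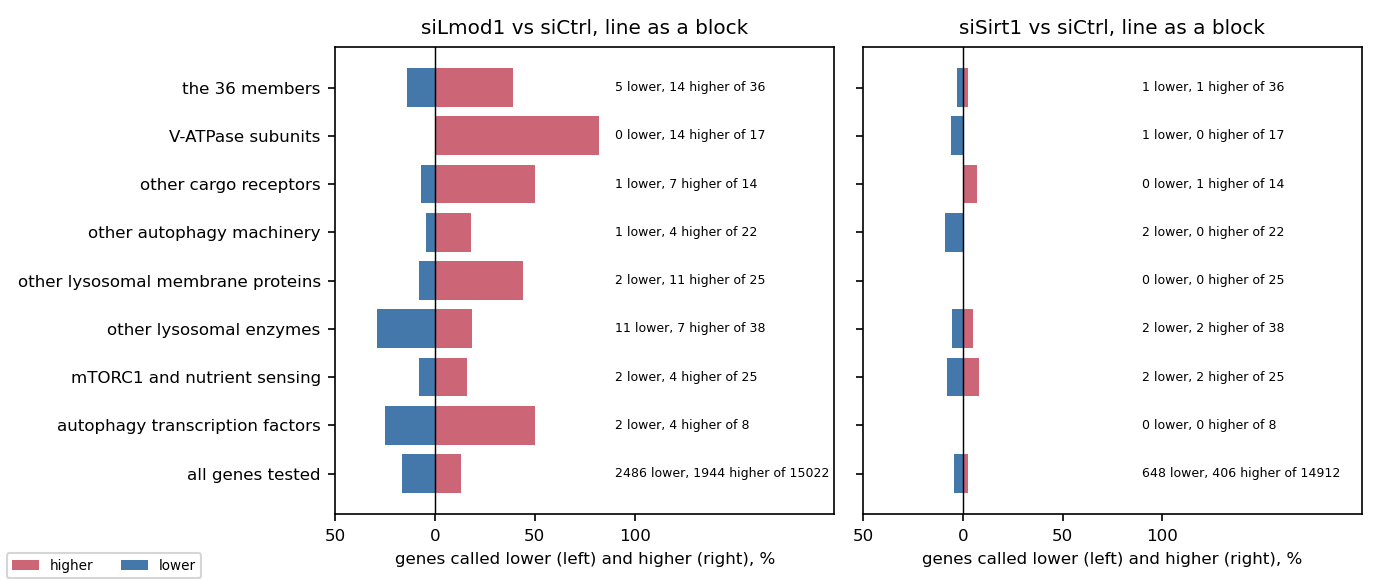
Share of each gene list called lower (blue, left of 0) and higher (red, right of 0) with the line as a block, in siLmod1 (left panel) and siSirt1 (right panel), with the numbers beside the bars and all genes tested in the bottom row. The vacuolar ATPase subunits have 14 of 17 higher in siLmod1 and 0 of 17 higher in siSirt1. The lists were chosen with earlier results of these data known.

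The comparison of siSirt1 with siCtrl asked what changes when Sirt1 is reduced, and it used the same 5 siCtrl libraries. Little of the module passed a test. In simulated data with the spread of these libraries, the blocked edgeR fit found 20 of 100 changes of 1.5-fold in this comparison and 72 of 100 in the first. Of 100 changes of 2-fold it found 63 and 82, and it made 5 and 10 false calls among the unchanged genes. The numbers of calls are therefore not a measure of how much each knockdown changed. In the pairwise edgeR fit with the line as a block Hexa rose and Map1lc3a, an LC3 gene, fell, while Tfeb, Ctns and Lamp2 did not pass. The members' median log2 fold change was 0.053 with the block, against 0.0068 over all genes.

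With the group alone, edgeR called 0 of 36 members (5 at an unadjusted p under 0.05), where 0.127% of 14912 genes were called, 0.0134% higher and 0.114% lower. No member's groups lay apart, where 1.3% of all genes did so upward and 1.64% downward. With the block it called 2, where 7.07% of all genes were called, and DESeq2 with the block called 5. Both edgeR calls were lost without line 1, 2, 4 or 7, and line 1 is the one whose siSirt1 library pairs least closely. Without the block DESeq2 called 0 as well. On the TPM scale the median of all genes was at 0.116 in siSirt1, so that 32 members lay above 0 there and 24 on the count scale, and 64.5% of the blocked calls over all genes were higher there, against 38.5% on the count scale.

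Hexa stood at 77.0, 28.6, 96.4, 13.4 and 139 CPM in siSirt1, against 46.7, 20.9, 89.3, 7.99 and 86.7 CPM in siCtrl. The lines differed far more than the groups, and each siSirt1 library was above its own siCtrl library, by 0.11 to 0.74 on the log2 scale (0.54 with the block, edgeR adjusted p = 0.030; 0.50, adjusted p = 0.89 without it). Map1lc3a stood at 48.3, 68.0, 62.1, 105 and 50.8 CPM in siSirt1, against 115, 90.4, 69.8, 252 and 74.4 CPM in siCtrl. It was lower in 5 of 5 lines, most in line 4 (-1.27) and least in line 3 (-0.17), and the groups overlapped (-0.73 with the block, adjusted p = 0.047; -0.85, adjusted p = 0.49 without it). Map1lc3b, which encodes LC3B, stood at 118, 95.9, 109.8, 157 and 133 CPM in siSirt1, against the siCtrl values above, and did not pass (0.018, adjusted p = 0.94).

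The next 6 members by p missed the threshold in the pairwise edgeR fit with the block. Over 11 settings of tool, scaling and unit, Optn was called in 3, Tfe3 in 2, Atg9a, Atg14 and Becn1 in 1 each and Atg7 in 0. Tfe3 stood at 41.7, 29.4, 39.3, 49.5 and 41.8 CPM in siSirt1, above siCtrl in 5 of 5 lines (0.44, edgeR adjusted p = 0.053). Atg9a stood at 36.1, 46.0, 40.2, 45.9 and 51.9 CPM in siSirt1, below siCtrl in 5 of 5 lines (-0.35, adjusted p = 0.066). Optn stood at 41.2, 39.0, 31.9, 60.4 and 41.6 CPM in siSirt1, against 37.4, 28.8, 25.8, 35.0 and 35.3 CPM in siCtrl (0.38, adjusted p = 0.075). In all 3 the groups overlapped, and the largest differences of Tfe3 and Optn came from line 4. Atg14 stood at 12.5, 14.6, 11.3, 26.3 and 28.1 CPM in siSirt1, against 10.2, 13.5, 9.98, 15.2 and 16.1 CPM in siCtrl (0.44, adjusted p = 0.11). Becn1 stood at 98.0, 86.9, 88.3, 137 and 115 CPM in siSirt1, against 84.5, 78.4, 86.7, 95.7 and 83.3 CPM in siCtrl (0.28, adjusted p = 0.12). Atg7, the activating enzyme of both conjugation systems, stood at 31.2, 29.7, 30.2, 33.998 and 44.6 CPM in siSirt1, against 31.8, 26.1, 27.0, 23.1 and 29.997 CPM in siCtrl (0.29, adjusted p = 0.16). For these 3 the largest differences came from lines 4 and 7, and the groups overlapped.

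The remaining members of interest did not pass either. Sqstm1 stood at 716, 455, 640.0, 1105 and 984 CPM in siSirt1, above siCtrl in lines 4 and 7 and below it in the others (0.059, edgeR adjusted p = 0.79 with the block). Ulk1 stood at 82.3, 87.0, 82.4, 66.2 and 68.7 CPM in siSirt1, with the largest difference from siCtrl in line 4 (0.15, adjusted p = 0.42). Tfeb stood at 3.60, 8.08, 6.57, 4.46 and 3.59 CPM in siSirt1, below siCtrl in 5 of 5 lines, by 1.09 on the log2 scale in line 1 and by 0.12 to 0.30 in the others (-0.37, adjusted p = 0.28). Ctns stood at 48.9, 38.3, 36.2, 45.3 and 61.1 CPM in siSirt1 and was higher than siCtrl in 3 of 5 lines (0.13, adjusted p = 0.54). Lamp2 stood at 296, 288, 246, 287 and 363 CPM in siSirt1, higher than siCtrl in 4 of 5 lines (0.18, adjusted p = 0.32).

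In the other lists few genes passed in siSirt1 in pairwise edgeR with the block, where 2.72% of all genes were called higher and 4.35% lower. Of 25 mTORC1 and nutrient sensing genes 2 rose, Sesn2 (0.56), which restrains mTORC1 under stress, and Rragd (0.39), and 2 fell, among them Fnip1 (-0.48). Of 22 other autophagy genes 0 rose and 2 fell, the protease Atg4a (-0.67) and Tmem41b (-0.42), a scramblase of the endoplasmic reticulum. Of 14 other cargo receptors 1 rose, Tollip (0.36), and 0 fell. Of the 17 vacuolar ATPase subunits 0 rose and 1 fell, Atp6v1c1 (-0.36). Of 38 lysosomal enzymes 2 rose and 2 fell, with the phospholipase Pla2g15 at 0.95 and Lgmn at -0.37. None of the 25 lysosomal membrane proteins or of the 8 transcription factors passed in pairwise edgeR, of which 9 and 3 had an unadjusted p under 0.05. Other blocked fits gave other counts. DESeq2 called 1 membrane protein higher and 2 lower, and 2 other autophagy genes higher and 2 lower. The fit of all 15 libraries called 4 membrane proteins higher and 2 lower, 5 autophagy genes higher and 3 lower, and 2 vacuolar ATPase subunits higher and 1 lower, and limma on the TPM scale called 2 subunits higher and 0 lower.

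Set directly against each other, the knockdowns differed in a pair of lysosomal membrane proteins with or without the block. Ctns averaged 46.0 ± 9.92 CPM in siSirt1 and 16.9 ± 2.73 CPM in siLmod1, and Lamp2 296 ± 42.2 and 187 ± 17.0 CPM (SD, n = 5). Both were higher in 5 of 5 lines with no overlap, and both passed without the block, at a log2 fold change of 1.44 (edgeR adjusted p = 0.0076) and 0.65 (adjusted p = 0.031), and with it (adjusted p = 0.0014 and 0.0052). These 2 were the members that edgeR called without the block, where 1.53% of 14998 genes were called, 0.68% higher and 0.847% lower. Leaving out 1 library there gave 1 to 2 members, and with no filter on low counts only Ctns was called. Over 11 settings of tool, scaling and unit, Lamp2 was called in 10 and Ctns in 11. The groups lay apart for 3 members upward (Ctns, Lamp2 and Atg9a) and 2 downward (Tfeb and Rb1cc1), where 2.63% and 3.11% of all genes did so. For Atg9a, Tfeb and Rb1cc1 the margin was very small. The lowest siSirt1 library of Atg9a was at 36.09 CPM, against a highest siLmod1 library of 35.97 CPM. The highest siSirt1 libraries of Tfeb and Rb1cc1 were at 8.08 and 97.600 CPM, against lowest siLmod1 libraries of 8.10 and 97.607 CPM. With the block 9 members were called, 4 higher and 5 lower, where 15.9% of all genes were called, 7.43% higher and 8.43% lower. Of the calls over all genes 46.9% were higher on the count scale and 62.8% on the TPM scale. This comparison shares its libraries with those above and is no independent evidence for them.

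With the block Atg9a (0.49) and Atg16l1 (0.33) were also higher in siSirt1 in 5 of 5 lines (edgeR adjusted p = 0.030 and 0.044). Atg16l1 stood at 47.5, 47.9, 56.2, 51.7 and 51.7 CPM in siSirt1, against 37.0, 40.6, 48.2, 34.1 and 44.1 CPM in siLmod1, with overlapping groups. Both calls were lost when any 1 line was left out. Tfeb was lower in 5 of 5 lines, at 5.26 ± 1.99 CPM in siSirt1 and 11.3 ± 3.15 CPM in siLmod1. Its groups did not overlap, by the small margin given above (-1.14 with the block, edgeR adjusted p = 0.0082, and -1.11 without it, adjusted p = 0.10). Map1lc3a stood at 48.3, 68.0, 62.1, 105 and 50.8 CPM in siSirt1, against 119.7, 101, 93.4, 247 and 103 CPM in siLmod1. It was lower in 5 of 5 lines, with line 4 highest in both groups (-0.95, adjusted p = 0.0049; adjusted p = 0.15 without the block). Both calls held without any 1 line.

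Gabarapl2 (-0.35), Rb1cc1 (-0.32) and Ulk2 (-0.37) were lower in siSirt1 with the block and were each called without only 1 of the 5 lines (edgeR adjusted p = 0.031, 0.049 and 0.048). Gabarapl2 stood at 45.0, 41.4, 38.8, 50.7 and 40.2 CPM and Rb1cc1 at 86.4, 77.5, 82.2, 97.6 and 89.4 CPM in siSirt1, against their siLmod1 values above. Ulk2 stood at 34.5, 34.04, 31.0, 42.1 and 30.1 CPM in siSirt1, against 46.6, 44.3, 47.8, 41.6 and 40.3 CPM in siLmod1. Ulk2 was lower in 4 of 5 lines and slightly higher in line 4. Rb1cc1 was practically level in line 4 (97.600 CPM in siSirt1 and 97.607 CPM in siLmod1) and lower in the other lines. Tfe3 (0.13), Sqstm1 (-0.22), Map1lc3b (0.012) and Ulk1 (0.079) did not pass (adjusted p = 0.40, 0.28, 0.95 and 0.62). Of the vacuolar ATPase subunits 0 were higher and 5 lower in siSirt1 with the block, with Atp6v1a at 173 ± 44.1 CPM in siSirt1 and 300.3 ± 86.7 CPM in siLmod1 (-0.78, adjusted p = 0.0049; adjusted p = 0.11 without the block).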

How the data were processed

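Polyadenylated RNA of 15 libraries was sequenced, 5 each of siSirt1, siLmod1 and siCtrl. The deposited raw counts per Ensembl gene and the TPM values that the authors deposited, which are scaled to gene length, were used. The submitters' processing notes name DESeq2 and mm10, and no source used here names an aligner, a counting tool or an annotation release. The 3 pairwise tables held identical values for the libraries they share, and a further set of size-factor scaled tables was not used. Gene symbols and coordinates came from GENCODE M21, which matched 49056 of 49315 IDs.

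Each pair of groups was fitted on counts with edgeR 4.0.16 (R 4.3.3): filterByExpr, TMM scaling, the quasi-likelihood test with the group alone (8 residual degrees of freedom), and Benjamini-Hochberg adjustment over all genes, called at 0.05. As an alternative the line number entered as a replicate block (4 residual degrees of freedom). The labels give each library a replicate number and no line name, and the design text says that 5 different primary lines were used, so the number was taken as the line. Libraries with the same number deviated together from their group means (r = 0.338 to 0.938, median 0.826, 15 pairs), and those with different numbers had r = -0.585 to 0.312 (60 pairs). The lowest same-number r was that of the siSirt1 and siCtrl libraries of line 1. Other alternatives were DESeq2 1.42.0, its size factors in edgeR, no filter on low counts, all 15 libraries in 1 fit, limma 3.58.1 on log2(TPM + 1) or log2(TPM + 0.1), and leaving out each library or line. The fits were tested on simulated data.

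CPM values are scaled by TMM over all libraries. Nothing in the labels says whether the libraries came from separate transfections or animals, so p-values measure only the spread between these libraries, which may be technical in part. Library depth was 21004908 to 27815744 counts in siSirt1, 27135398 to 31829009 in siLmod1 and 26097889 to 33601761 in siCtrl. The members and gene lists were chosen with earlier results of these data known. Values by library are given for the 8 members with the smallest unadjusted p in each blocked comparison and for Tfeb, Tfe3, Sqstm1, Map1lc3b, Ulk1 and Ctns, and up to 3 genes by p from each other list. The library kit does not mark strand, so reads of overlapping genes cannot be told apart.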

Additional observations from a re-analysis of the deposited data

Results flagged for a closer look

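In 4 of 108 sets of 5 libraries (36 members in 3 groups), the highest or lowest library lay far from the other 4, by Dixon's test at the 95% level. Chance flags about 1 in 20 such sets. Atg13 stood at 76.8 CPM in siCtrl line 4, against 44.6 to 51.2 CPM in the other siCtrl lines. Map1lc3a stood at 246.7 CPM in siLmod1 line 4, against 93.4 to 119.7 CPM in the others. Nbr1 stood at 377 CPM in siLmod1 line 4, against 256 to 281 CPM in the others. Sqstm1 stood at 609.9 CPM in siLmod1 line 2, against 886 to 989.8 CPM in the others. For Atg13, Map1lc3a and Nbr1, line 4 was the highest line in all 3 groups, and for Sqstm1, line 2 was the lowest line in all 3 groups.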

How the results depend on the processing

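In siLmod1 against siCtrl, 17 genes and 1 member were called with the group alone. The replicate block called 4430 genes and 19 members, DESeq2 261 and 4, DESeq2 with the replicate block 3975 and 19, all 15 libraries 38 and 2, and all 15 with the replicate block 1427 and 10. No filter on low counts gave 6 genes. In limma on log2(TPM + 1) and log2(TPM + 0.1) 0 members were called, and with the replicate block 4197 genes and 21 members. Leaving out 1 library gave 3 to 10 genes and 0 to 1 member, and leaving out 1 line in the blocked fit 2833 to 4264 genes and 16 to 18 members.

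In siSirt1 against siCtrl, 19 genes and 0 members were called with the group alone. The replicate block called 1054 genes and 2 members, DESeq2 294 genes, DESeq2 with the replicate block 1940 genes and 5 members, all 15 libraries 150 genes, and all 15 with the replicate block 2530 genes and 6 members. No filter gave 7 genes, limma 2 genes at either pseudocount, and limma with the replicate block 1031 genes and 2 members. Leaving out gave 3 to 13 genes and 0 members without the block and 332 to 580 genes and 0 to 2 members with it.

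In siSirt1 against siLmod1, 229 genes and 2 members were called with the group alone. The replicate block called 2379 genes and 9 members, DESeq2 922 and 4, DESeq2 with the replicate block 3171 and 9, all 15 libraries 554 and 4, and all 15 with the replicate block 4210 and 13. No filter gave 90 genes and 1 member, and limma with the replicate block 2144 genes and 5 members. Leaving out gave 54 to 247 genes and 1 to 2 members without the block and 946 to 1771 genes and 4 to 6 members with it. The cause of these differences was not tested.

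Over the 11 settings of tool, scaling and unit, the direction turned for 2 members in siLmod1 against siCtrl, for 11 in siSirt1 against siCtrl and for 3 in siSirt1 against siLmod1, none of them called in any of these settings. In siSirt1 against siLmod1 the members' median was -0.0715 with the group alone and 0.047 on log2(TPM + 1). Of the members described by library, the values that turned passed no test. In siLmod1 against siCtrl, Map1lc3b was at 0.00071 with all 15 libraries, 0.035 in limma on log2(TPM + 1) with and without the replicate block, 0.036 on log2(TPM + 0.1), and -0.0299 to 0.0222 when a library or line was left out, and Ulk1 at -0.0755 to 0.183 in leave-outs. In siSirt1 against siCtrl, leave-outs gave -0.0642 to 0.244 for Sqstm1, -0.0759 to 0.113 for Map1lc3b, -0.00549 to 0.256 for Ulk1 and -0.00055 to 0.225 for Ctns. In siSirt1 against siLmod1 they gave -0.0673 to 0.106 for Map1lc3b and -0.0592 to 0.176 for Ulk1.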
